A study of Homo sapiens with 6 samples.

Results

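Transcripts of 31 genes of cholesterol synthesis and sterol handling were followed in a human breast cancer line and in cells labelled as a clone of it. They were taken from a list of symbols of known function, which holds enzymes from acetoacetyl-CoA to cholesterol, regulators of the SREBP transcription factors, and proteins of sterol uptake control, transport, esterification and efflux. Probe sets, the groups of short probes that read one transcript on the array, were assigned by the symbols of the platform annotation. In all, 29 of the 31 genes were read by at least 1 probe set naming that gene alone, with 68 probe sets of the 41091 on the array that name 1 gene, or 29 of 19775 genes. Both probe sets that name CYP51A1, the lanosterol demethylase, also name LRRD1, so they were not read. FDFT1, the squalene synthase, was not analysed here.

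Total RNA was measured on 6 one-colour Affymetrix arrays. The not_transfected group held 3 samples of MDA-MB-231, an established line of invasive human breast tumour cells, which received no treatment. The wtCopFry group held 3 samples labelled 231wCFry, which the labels describe as a single stable clone of MDA-MB-231 carrying the wild-type Fry cDNA of the Cop rat in a pEGFP-N1 plasmid, selected with puromycin and picked for a Fry level like that of the non-transformed mammary line MCF10A. The FRY protein is known as a binding partner of NDR kinases. Both lines grew in the same medium with fetal bovine serum, which itself supplies cholesterol in lipoproteins. No empty-vector clone is among the samples analysed here. The design text says that samples of a line differed in passage number. No label ties a sample to its own culture, so the p-values measure only the spread between these samples, which may be technical, and 3 arrays per group limit the precision of every value.

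Values are MAS5 signals in arbitrary units, scaled by the authors so that the trimmed mean was the same on every array, and their error is the SD over 3 arrays. Differences are on the log2(signal + 16) scale, wtCopFry minus not_transfected, which understates the change of dim genes. "Rose" and "fell" mean an adjusted p under 0.05 in limma, fitted over all 32771 probe sets that passed a filter on low signal and adjusted by the Benjamini-Hochberg method. The groups differed across most of the transcriptome: 67.1% of the 13630 genes tested passed, 34.1% upward and 33.1% downward. Human FRY gave no check of the transgene, since the cDNA is of the rat and all 4 human probe sets failed the filter, with no signal above 9.8. All 4 had a lower mean on the wtCopFry arrays. The probe set that reached 9.8 read 8.27 ± 2.08 and 0.37 ± 0.25, not above background on the wtCopFry arrays. The labelled cell type was compared with its markers. Of 9 epithelial and mammary markers 7 fell and 1 rose. Their summed signal was 8725 to 9359 on the not_transfected arrays and 1799 to 1949.9 on the wtCopFry arrays. KRT18, the brightest, stood at 2992 ± 191 and 1507 ± 56.5. The marker that rose was ESRP1, dim at 2.87 ± 0.71 and 23.7 ± 4.03. CDH1 was dim at 9.73 ± 3.29 and 6.73 ± 1.66 and did not pass (both named after their values were seen). KRT19, named after its values were seen, was not above background on the wtCopFry arrays. Of 8 measured melanocyte and neural crest markers (of 10 listed), 6 of the 7 tested rose, with a summed signal of 386 to 470.6 and 5016 to 5476. S100B stood at 0.70 ± 0.87 and 1770.1 ± 93.3, and 4 of the 8, among them SOX10 (named after its values were seen), were not above background on the not_transfected arrays. Of 6 mesenchymal markers 2 rose and 3 fell, with summed signals of 7892 to 8596 and 7939 to 9485, and VIM read 3463 ± 200 and 3954 ± 521. The like sums hide large single differences (genes named after their values were seen). CDH2 rose from 43.1 ± 2.84 to 1849 ± 266 and FN1 from 2071 ± 131 to 2569 ± 130. CDH11 fell from 774 ± 21.1 to 0.23 ± 0.058, not above background. LOX fell from 826 ± 81.2 to 3.93 ± 0.74 and ZEB1 from 1091 ± 111 to 316 ± 3.18. Markers of other cells rich in sterols were mostly dim. Adipocyte and hepatocyte markers summed to 331 to 439 and 37.2 to 54, and the 2 tested fell. Of these SERPINA1 gave 342 ± 63.1 and 24.8 ± 1.53, so it was not dim on the not_transfected arrays. Markers of steroid-making cells summed to 24.4 to 38.6 and 7.9 to 13.3 (CYP11A1 15.6 ± 4.5 and 1.2 ± 1.14), and the 2 tested fell. Macrophage markers summed to 74.6 to 85.6 and 18.8 to 34.4 (CSF1R 59.2 ± 8.52 and 5.27 ± 2.8). Of the 3 tested, 2 fell and 1 rose. The one that rose was MRC1 (named after its values were seen), from 6.17 ± 2.5 to 19.6 ± 6.38. RNA quality was read from GAPDH: its 3' control gave 1.36 to 1.39 times the signal of its 5' control in the not_transfected group and 1.24 to 1.33 times in the wtCopFry group. These marker levels go against the label of the wtCopFry samples as a clone of MDA-MB-231. Whether they are such a clone was not tested, so every difference given here is between the samples as labelled, and clone identity and the transgene cannot be told apart. The part of these markers and of RNA quality in the results on the sterol genes was not tested. In bulk samples fewer cells of a type and less RNA per cell cannot be told apart.

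Cells make cholesterol from acetyl-CoA by way of mevalonate, isoprene units, squalene and lanosterol, and take up more of it in lipoproteins from serum. When sterol in the endoplasmic reticulum is low, SCAP carries the SREBP proteins to the Golgi, where they are cleaved into transcription factors that turn on the genes of synthesis and uptake. When sterol is ample, INSIG proteins hold SCAP back, and oxysterols activate LXR receptors, which turn on genes of efflux such as ABCA1. In the promoters of many SREBP targets a sterol regulatory element stands near a box bound by NF-Y.

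Promoter windows from 250 bases before to 50 bases after the transcript start (RefSeq, GRCh38.p14) were found for 27 of the 31 genes, some of which have several starts, for 34 windows in all. They were searched on both strands for the core of the sterol element, TCACNCCAC, and for the NF-Y box, CCAAT. Matches can overlap, as in CCAATTGG, which counts on both strands. The strict sterol core stood in 1 of the 27 genes, SREBF2, and in 1.39% of all 27305 genes with a window. The NF-Y box stood in 19 of the 27 genes (70.4%) and in 39.7% of all genes. It was in 13 of the 16 sterol genes with a window that fell, in 1 of the 3 that rose and in 5 of the 7 that did not pass the test. These are matches of letters and not measured binding. The stretches below, each 100 bases read 5′ to 3′ on the gene's strand, are shown for SREBF2, which holds both boxes, and for 4 genes that fell and are described in what follows. Capitals mark the matches, and ATTGG is the NF-Y box on the other strand.
SREBF2 (chr22:41832967-41833066, plus strand): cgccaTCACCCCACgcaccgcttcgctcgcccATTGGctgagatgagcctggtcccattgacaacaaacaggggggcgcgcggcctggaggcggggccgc
STARD4 (chr5:111512602-111512701, minus strand): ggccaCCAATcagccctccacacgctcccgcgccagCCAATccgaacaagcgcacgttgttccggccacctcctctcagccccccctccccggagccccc
INSIG1 (chr7:155297703-155297802, plus strand): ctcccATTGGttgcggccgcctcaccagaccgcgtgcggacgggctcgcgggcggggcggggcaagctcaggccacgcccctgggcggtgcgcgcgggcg
HMGCS1 (chr5:43313473-43313572, minus strand): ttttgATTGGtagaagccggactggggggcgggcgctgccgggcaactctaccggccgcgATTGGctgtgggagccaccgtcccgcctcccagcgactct
MSMO1 (chr4:165327569-165327668, plus strand): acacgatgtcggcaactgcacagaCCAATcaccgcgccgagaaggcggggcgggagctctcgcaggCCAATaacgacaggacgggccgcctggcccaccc
In SREBF2 the sterol core and the NF-Y box lay 18 bases apart. ABCA1, the sterol gene that rose most, had neither box in its window.

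Most sterol genes read lower on the wtCopFry arrays. Of the 29 genes read, 28 passed the filter on low signal, and of these 17 fell, 4 rose and 7 did not pass the test. Those shares are 17 of 28 against a background of 33.1% for falls, and 4 of 28 against 34.1% for rises. Since the genes were chosen with earlier results of these data known, these counts are a description and no independent evidence of a direction. The median difference was -0.43 over the 28 genes and 0.0082 over all genes tested, while the median size regardless of sign was 0.57 and 0.48. The groups did not overlap in 20 of the 28 genes, 16 of them lower and 4 higher, where 73.1% of all genes tested did not overlap, 36.1% lower and 37.0% higher. A difference of at least 1 was reached by STARD4, ACAT2 and INSIG1 downward and by ABCA1 upward, 4 of 28, where 23.2% of all genes tested passed with a difference that large. Most falls were thus under 1 on this scale.

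**Figure D1:**
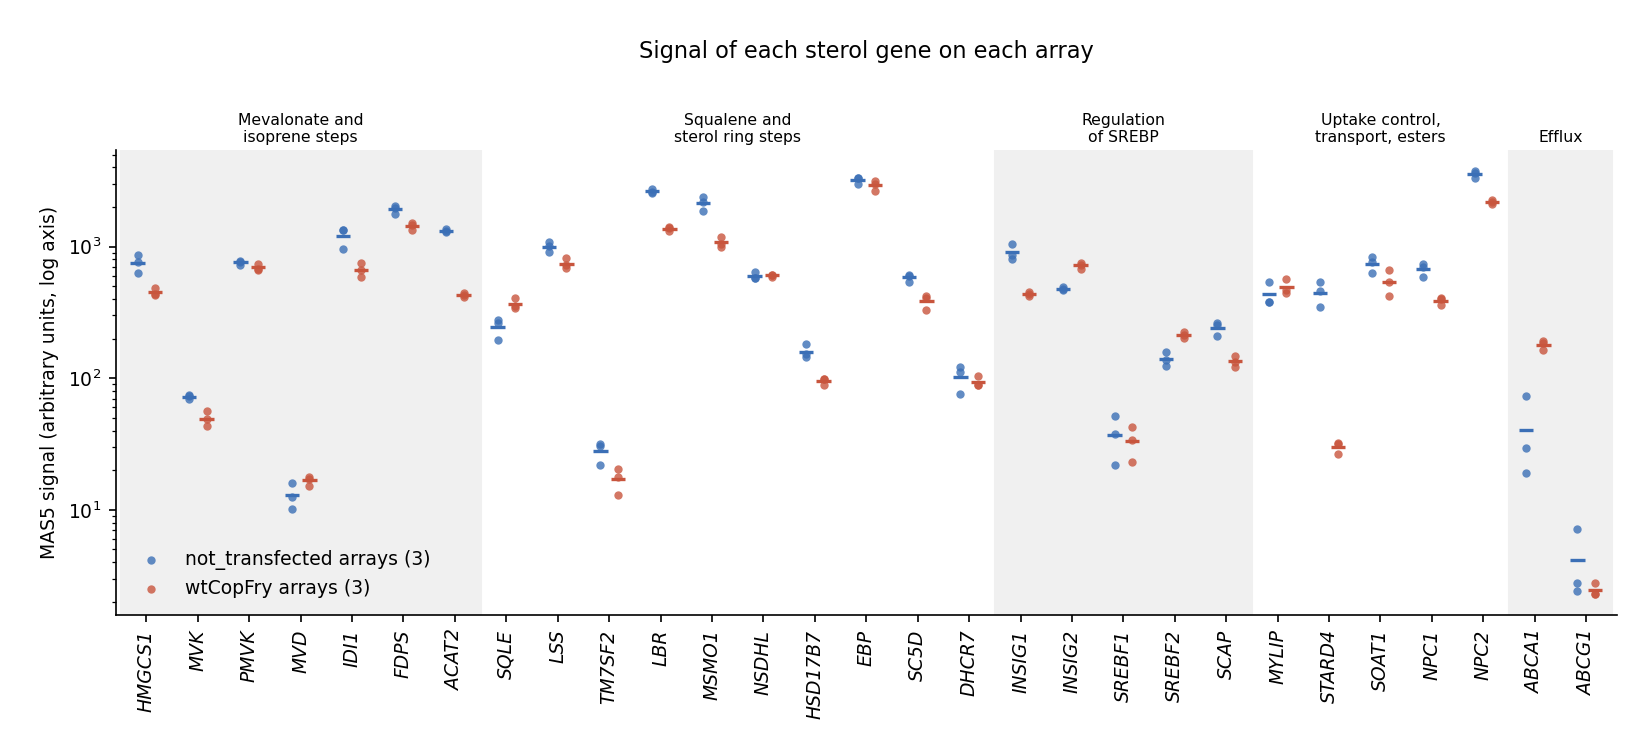
MAS5 signal (arbitrary units, log axis) of each sterol gene, by its brightest tested probe set (for ABCG1 its brightest), on the 3 not_transfected arrays (blue) and the 3 wtCopFry arrays (red), ordered by role. Points are arrays and short lines group means; STARD4 falls from 447 to 30.1 and ABCA1 rises from 40.6 to 180.1, while ABCG1 reads under 10 on every array.

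The first steps of the pathway were lower. ACAT2, the cytosolic thiolase that joins acetyl-CoA units, read 1281.3, 1312.1 and 1362.3 on the not_transfected arrays and 428.8, 414.4 and 440 on the wtCopFry arrays. The groups lay far apart, and the fall was 3.08-fold in the means (difference -1.59, SE 0.085, adjusted p = 2.87e-07). ACAT2 was read by 1 probe set, which by its name suffix may cross-hybridise with similar transcripts, so no other reading was at hand. HMGCS1, the synthase that makes HMG-CoA, read 765.8, 855.3 and 633.8 against 431.5, 437.8 and 485 (-0.71, SE 0.12, adjusted p = 6.82e-04). Every wtCopFry array was below every not_transfected array, with the third not_transfected array the lowest of its group. A dimmer HMGCS1 probe set, at 61.5 ± 6.93 and 47.8 ± 10.0, did not pass (-0.29, adjusted p = 0.077).

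In the mevalonate steps the enzymes parted ways. MVK, the first kinase, fell from 72.2 ± 2.95 to 49.4 ± 6.56 (SD, n = 3; -0.44, adjusted p = 0.0041), and its other tested probe sets fell too; with a pseudocount of 64 the difference was -0.27. PMVK, the second kinase, stood at 757 ± 26.1 and 693.3 ± 36.6, which did not pass, with a 95% interval of -0.33 to 0.074. MVD, the decarboxylase that follows, was dim at 12.9 ± 2.97 and 16.7 ± 1.39 and did not pass either (interval -0.048 to 0.41). So 1 of the 3 enzymes that turn mevalonate into isopentenyl diphosphate fell, and for both others the intervals cover 0.

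The isoprene steps that follow fell on their brightest probe sets. IDI1, the isomerase of isopentenyl diphosphate, read 1333.4, 1345.5 and 958.7 against 659, 744.4 and 585.3 (-0.85, SE 0.15, adjusted p = 8.05e-04). Its second bright probe set fell alike, from 1191 ± 144 to 684.4 ± 55.7 (-0.78). By their name suffix, both may cross-hybridise with similar transcripts, and the IDI1 probe set left without such types, at 21.2 ± 7.53 and 20.1 ± 0.72, did not pass (-0.028, adjusted p = 0.87). A further dim IDI1 probe set, also prone to cross-hybridise, stood at 42.3 ± 4.25 and 46.6 ± 3.28 and did not pass (0.10, adjusted p = 0.37). FDPS, which makes farnesyl diphosphate, the last intermediate shared with protein prenylation, fell from 1917 ± 130.2 to 1429 ± 86.1 (-0.42, adjusted p = 0.0039). In all, 5 of the 7 genes from ACAT2 to FDPS fell, ACAT2 and IDI1 with the limits given, and none rose, beside 33.1% and 34.1% of all genes tested. Their median was -0.44.

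Among the 10 tested enzymes of squalene and the sterol rings 1 rose, 6 fell and 3 did not pass. SQLE, the squalene epoxidase, read 275.8, 264.8 and 194.6 on the not_transfected arrays and 352.4, 408.8 and 341.8 on the wtCopFry arrays. All wtCopFry values were higher, and the rise was 1.5-fold in the means (0.57, SE 0.14, adjusted p = 0.0055). Its other tested probe sets, from 18 ± 2.83 to 34.3 ± 1.36 and from 44.2 ± 5.39 to 72.6 ± 2.2, rose by a like amount (0.57 and 0.56). LSS, the cyclase that closes the rings next, fell from 1000.4 ± 87.3 to 741.7 ± 62.7 (-0.42, adjusted p = 0.0061), while its dimmer probe sets did not pass (-0.076 and -0.24), which makes the median over its probe sets -0.24. SQLE was the only enzyme of synthesis among the 17 tested that rose.

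Of the ring enzymes after LSS, 5 fell. MSMO1, the C4 methyl oxidase, read 2163.5, 2394 and 1850.9 against 1051.5, 1186.6 and 988.3. The groups did not overlap, and the fall was 1.99-fold in the means (-0.98, SE 0.12, adjusted p = 8.01e-05). HSD17B7, a ketosteroid reductase of the same C4 steps, fell from 158.8 ± 19.3 to 95.3 ± 5.35 (-0.65, adjusted p = 4.91e-04) on a probe set prone to cross-hybridise. NSDHL, the dehydrogenase between them, was level at 598.5 ± 36.2 and 602.7 ± 13.4, with an interval of -0.19 to 0.21. SC5D, the desaturase near the end of the pathway, read 606.6, 540.8 and 602 against 409.7, 420.8 and 328.1 (-0.58, SE 0.11, adjusted p = 0.0016), and its dim probe set fell too.

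Both reductases of the sterol C14 double bond fell. LBR, which is also the lamin B receptor of the inner nuclear membrane, read 2616, 2531.3 and 2729.9 against 1387.7, 1404.8 and 1307.7, with a narrow spread in both groups (-0.93, SE 0.087, adjusted p = 1.26e-05). TM7SF2 was dim and fell from 28 ± 5.38 to 17.1 ± 3.81 (-0.41, adjusted p = 0.018). That call was lost without the second or the third not_transfected array (adjusted p = 0.060 and 0.057) or the second wtCopFry array (0.070), and the difference was -0.68 with a pseudocount of 1 and -0.18 with one of 64. The within-array difference TM7SF2 minus LBR shifted by 0.53 (exact permutation p = 0.10, the smallest that 3 arrays against 3 allow, adjusted 0.125). The bright LBR hardly moved with the pseudocount, at -0.94 with 1 and -0.91 with 64. The size of the shift between the 2 genes thus depends on the pseudocount. EBP, the isomerase of the C8 double bond, did not pass on its brightest probe set at 3190.1 ± 176 and 2930 ± 249.3 (-0.12, interval -0.35 to 0.10), though its next probe sets fell slightly (-0.25, adjusted p = 0.031, and -0.26, adjusted p = 0.027). DHCR7, the last reductase, stood at 102.7 ± 23.9 and 93.6 ± 8.17 and did not pass (-0.097, interval -0.43 to 0.24). The median over the 10 tested enzymes from SQLE to DHCR7 was -0.42, and their 6 falls stand beside 33.1% of all genes tested.

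**Figure D2:**
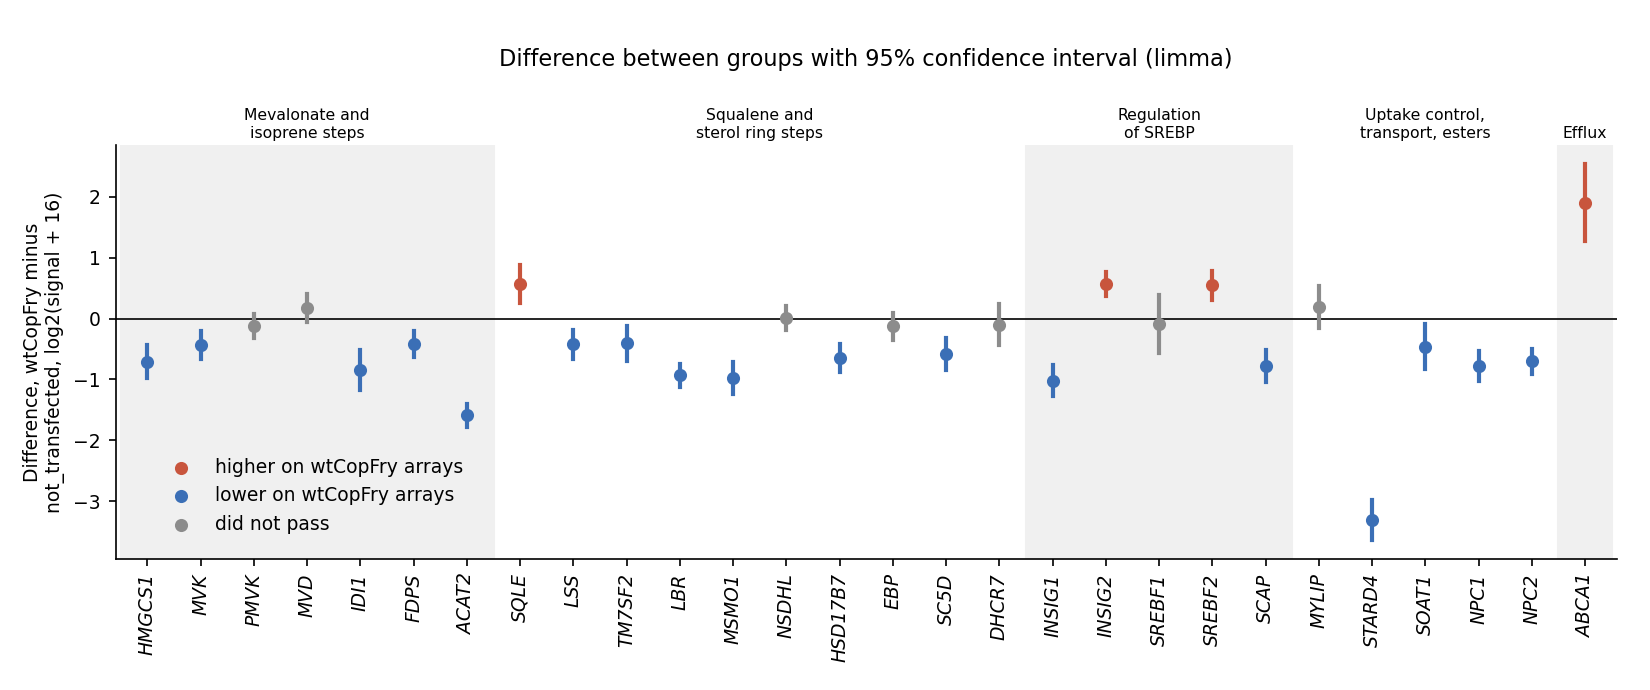
Difference between groups on the log2(signal + 16) scale (y axis) for the 28 tested sterol genes, ordered by role, with the 95% confidence interval of the limma fit. Blue genes fell, red genes rose and grey genes did not pass at an adjusted p of 0.05; 17 are blue, 4 red and 7 grey.

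Of the 5 regulators of SREBP 2 rose and 2 fell, near the shares of all genes tested (34.1% and 33.1%). INSIG1, an ER protein that retains SCAP and is itself a target of SREBP, read 866.6, 1046.3 and 802.3 on the not_transfected arrays and 437.1, 449.6 and 419.4 on the wtCopFry arrays. No values overlapped, the fall was 2.08-fold in the means (-1.02, SE 0.11, adjusted p = 3.81e-05), and its other probe sets fell by -1.42 and -0.94. INSIG2, the paralog with the same retaining role, read 492, 475.7 and 464.8 against 675.4, 751.5 and 728.7, so all wtCopFry arrays were higher (0.57, SE 0.088, adjusted p = 3.61e-04). Within each array, INSIG1 minus INSIG2 was 0.80, 1.11 and 0.77 on the not_transfected arrays and -0.61, -0.72 and -0.77 on the wtCopFry arrays. This shift of -1.59 had an exact two-sided permutation p of 0.10, the smallest that 3 arrays against 3 allow (0.125 adjusted over 5 pairs of genes), so the test cannot pass here.

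SREBF2, which encodes the SREBP that chiefly drives cholesterol genes and carries the sterol element printed above, read 138.6, 159 and 124 against 211.9, 223.3 and 201.5. The groups did not overlap (0.55, SE 0.11, adjusted p = 0.0014), and its 2 other probe sets rose too, from 33.9 ± 4.42 to 67.3 ± 2.84 and from 5.83 ± 4.34 to 19.9 ± 3.06. SREBF1, which encodes the SREBP-1 forms tied mainly to fatty acid synthesis, was dim and read 38, 51.2 and 22 against 23, 34.2 and 42.6. Its groups overlapped and it did not pass (-0.088, interval -0.57 to 0.39); the sign turned without the second not_transfected array (0.10) or the first wtCopFry array (0.070). The within-array difference SREBF1 minus SREBF2 shifted by -0.64 (exact permutation p = 0.10, adjusted 0.125). SCAP, the escort that brings SREBP to the Golgi, read 263.7, 255.7 and 208 against 121.4, 133.4 and 147.7 and fell (-0.78, SE 0.12, adjusted p = 2.85e-04). The median of the 5 regulators, -0.088, is the value of SREBF1.

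STARD4, a soluble protein that carries cholesterol between membranes and the endoplasmic reticulum, fell most of the set. It read 536.6, 456.4 and 348.6 on the not_transfected arrays and 26.7, 32.2 and 31.5 on the wtCopFry arrays. The groups lay far apart, with all wtCopFry arrays at the level of dim genes, and the fall was 14.8-fold in the means (-3.31, SE 0.15, adjusted p = 7.65e-08). Among all genes tested, 217 (1.59%) had a difference at or below that value. STARD4 was read by 1 probe set, so no second reading was at hand.

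The endosomal pair that exports cholesterol from lysosomes fell together. NPC2, the soluble binder in the lumen, read 3301.8, 3738.1 and 3613.1 against 2172.5, 2103.4 and 2239.2 (-0.70, SE 0.091, adjusted p = 1.12e-04). NPC1, the membrane partner that receives the cholesterol, read 737.2, 702.5 and 591.5 against 403.2, 397.5 and 360.1 (-0.78, SE 0.11, adjusted p = 1.81e-04). The groups of both genes lay apart, and the within-array difference NPC1 minus NPC2 shifted by -0.074 (exact permutation p = 0.70). NPC1 was the single sterol gene with probe sets called in both directions: a dim one rose from 50.1 ± 7.82 to 73.2 ± 18.4 (0.42, adjusted p = 0.045) and another near background fell (-0.35), so that the median over its tested probe sets was -0.35.

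SOAT1, which esterifies cholesterol for storage in droplets, read 768.5, 633.1 and 826.2 against 658.2, 542.1 and 421.2 on its brightest probe set. It fell (-0.46, SE 0.16, adjusted p = 0.033), but 1 wtCopFry array lay above 1 not_transfected array, and SOAT1 was the only called sterol gene whose groups overlapped. The call was lost without the first or the third not_transfected array (adjusted p = 0.088 and 0.0998), without the second or the third wtCopFry array (0.068 and 0.11), with no filter (0.066) and with a pseudocount of 1 (0.081), and without the third wtCopFry array the difference was -0.30. Its other probe sets fell without overlap, from 733 ± 64.6 to 466 ± 25.2 (-0.63) and from 750.4 ± 44.8 to 354 ± 62.2 (-1.06, adjusted p = 8.74e-05). MYLIP, the ubiquitin ligase also called IDOL that limits lipoprotein uptake by removing the receptor, stood at 432.3 ± 95 and 493.2 ± 65.7 and did not pass (0.20, interval -0.15 to 0.54). Without the second not_transfected array it passed (0.36, adjusted p = 0.037), and of its 5 dimmer probe sets 1 rose (0.58, adjusted p = 0.021). In this role 4 of 5 genes fell, SOAT1 with the limits just given, beside 33.1% of all genes tested, and the median was -0.70.

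Of the efflux genes only ABCA1 was tested, and it rose. ABCA1, which loads cholesterol onto lipid-poor apolipoproteins, read 29.4, 73.4 and 18.9 on the not_transfected arrays and 183.7, 191.8 and 164.7 on the wtCopFry arrays. The not_transfected arrays were spread widely, yet all lay below every wtCopFry array, and the rise was 4.44-fold in the means (1.91, SE 0.28, adjusted p = 2.78e-04). A second ABCA1 probe set rose from 17.6 ± 7.64 to 63.4 ± 8.74 (1.26, adjusted p = 9.17e-05), which is also the value without probe sets prone to cross-hybridise; with a pseudocount of 64 the first gave 1.26 as well. Its remaining pair of probe sets, at most 5.6 on any array, failed the filter. ABCG1, which exports cholesterol to larger lipoproteins, failed the filter with all 4 probe sets, and the brightest stood at 4.13 ± 2.66 and 2.47 ± 0.29 (not passed in a limma fit without the filter, adjusted p = 0.45). The within-array difference ABCA1 minus ABCG1 shifted by 2.03 (exact permutation p = 0.10, adjusted 0.125), with ABCG1 near background throughout.

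**Figure D3:**
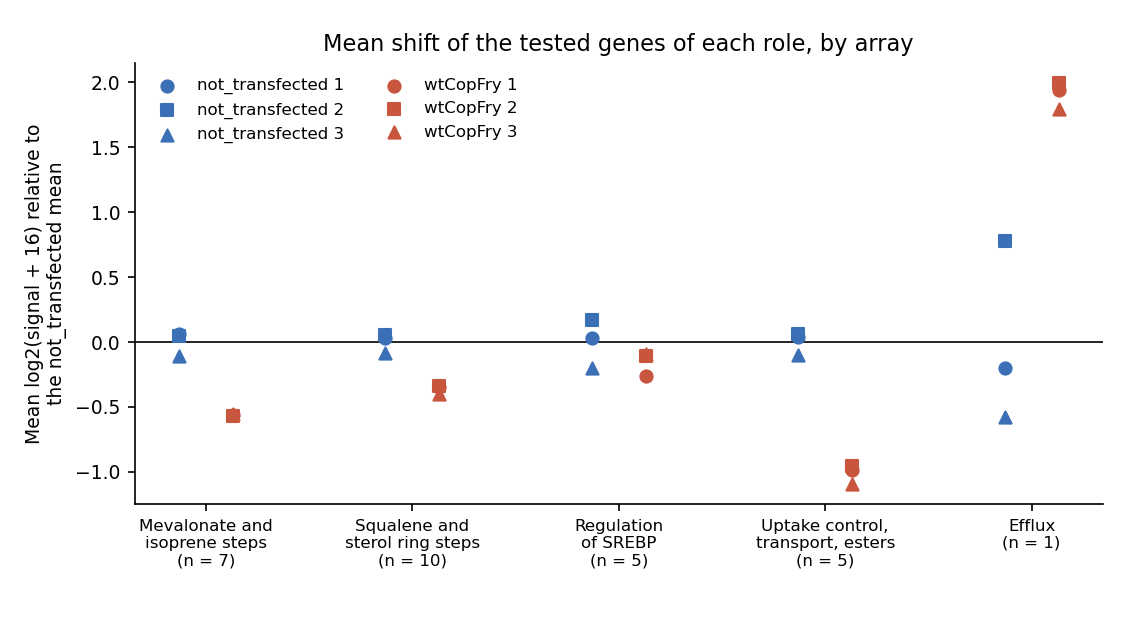
Mean of log2(signal + 16) over the tested genes of each role (x axis), relative to the mean of the not_transfected arrays, with 1 point per array. On the wtCopFry arrays (red) the mevalonate and isoprene genes sit between -0.57 and -0.55 and the transport genes, which include STARD4 with its difference of -3.31, between -1.09 and -0.95, while ABCA1, the 1 tested efflux gene, sits between 1.79 and 1.995.

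The mean shift of the 17 tested synthesis genes was -0.44, -0.43 and -0.46 on the wtCopFry arrays, against 0.042, 0.054 and -0.096 on the not_transfected arrays. The third not_transfected array was the lowest of its group in 18 of the 28 sterol genes (64.3%), and in 36.8% of all genes tested. The median SD between arrays of the not_transfected group was 0.16 for sterol genes and 0.12 for all genes tested, and 0.10 and 0.10 in the wtCopFry group. The labels give no passage number for single samples. Without the third not_transfected array 4 sterol genes rose and 15 fell.

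**Figure D4:**
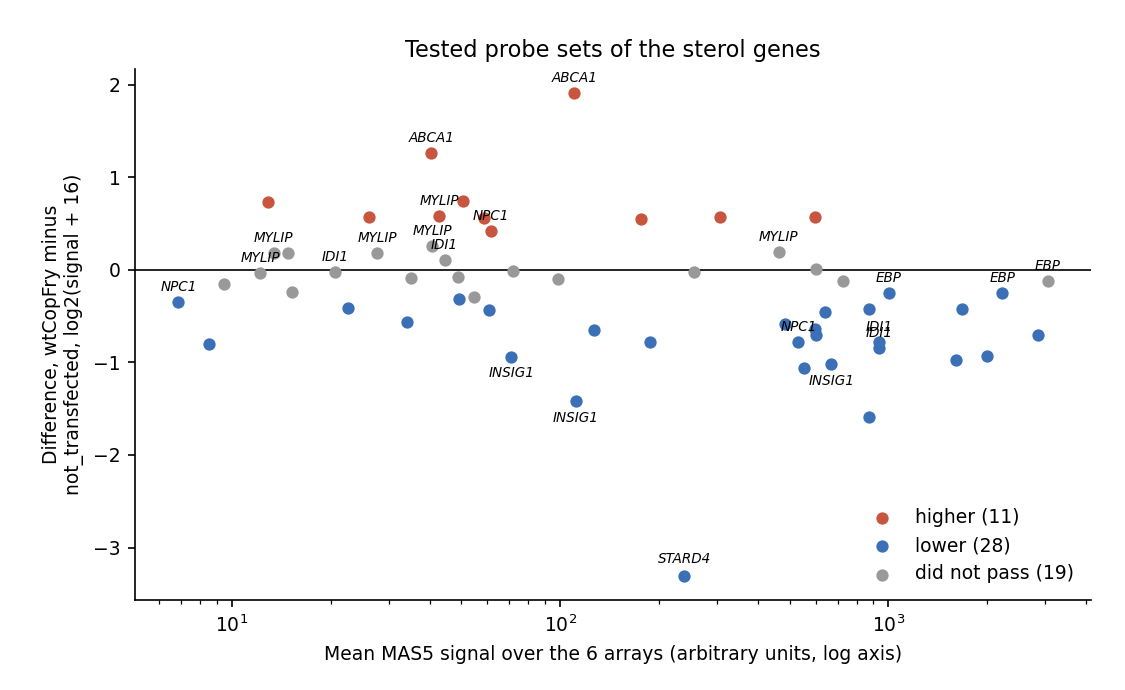
Difference on the log2(signal + 16) scale (y axis) against the mean signal over the 6 arrays (x axis, log scale) for the 58 tested probe sets of the sterol genes, with some genes named. Of these 28 fell (blue), 11 rose (red) and 19 did not pass (grey); NPC1 has probe sets of both colours.

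Counting probe sets adds more dim readings. The count includes the brightest tested probe set of each gene, which gave the calls above, so it is no separate evidence of them. Of 68 probe sets 58 passed the filter, and 28 fell, 11 rose and 19 did not pass, where 32.3% of all probe sets tested fell and 30.3% rose. Of the 16 genes with several tested probe sets, ABCA1, INSIG1, MVK, SC5D, SOAT1, SQLE and SREBF2 had every one called in 1 direction, which is 7 of 16 beside 38.6% of all such genes. For the other 12 tested genes a single probe set gave the value.

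Other genes tied to sterol metabolism, 74 in 5 lists, were read in the same fit. Of the 63 tested, 19 rose, 25 fell and 19 did not pass, with a median of -0.12, beside 34.1% and 33.1% of all genes tested. Among the fatty acid genes driven mainly by SREBP-1, 2 of 12 rose and 5 fell (median -0.18). ME1, the malic enzyme that supplies NADPH, went from 205 ± 11.7 to 1.2 ± 1.15, not above background and at least 58.2-fold lower (adjusted p = 2.01e-09); the bound is taken against the highest unspiked bacterial control signal on each array. ACLY, which makes cytosolic acetyl-CoA, fell from 765 ± 78.2 to 443.8 ± 26 (-0.76), and FADS2, a fatty acid desaturase, from 79.8 ± 21.5 to 14.3 ± 8.89 (-1.68).

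Of 11 tested genes of SREBP transport, cleavage and sterol-driven degradation, 4 rose and 5 fell (median -0.20), where 34.1% of all genes tested rose and 33.1% fell. RNF139, an ER ubiquitin ligase, rose from 429 ± 24 to 957 ± 54.8 (1.13, adjusted p = 5.28e-06), ERLIN1, a cholesterol-binding ER protein, fell from 1823 ± 152 to 877 ± 34.3 (-1.04), and UBE2G2, a ubiquitin-conjugating enzyme of ER degradation, rose from 1122 ± 63.6 to 1908 ± 54.9 (0.76). Of 6 tested genes of LXR signalling and oxysterols, 2 rose and 4 fell (median -0.77), beside the same shares of all genes tested. CYP27A1, which makes 27-hydroxycholesterol, rose from 95.9 ± 10.8 to 381 ± 24.9 (1.83, adjusted p = 4.03e-07), and LPCAT3, a phospholipid acyltransferase and LXR target, from 93.1 ± 11.2 to 286.8 ± 18.3 (1.48). RXRA, the partner receptor of LXR, fell from 526 ± 48.6 to 189.5 ± 18.6 (-1.40). Named after their values were seen, NR1H3, which encodes an LXR receptor, and CH25H fell too. NR1H3 went from 217 ± 31.2 to 94.2 ± 13.7 (-1.08). CH25H went from 56.3 ± 20.5 to 1.8 ± 0.95, not above background and at least 15.2-fold lower.

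Of 23 tested genes of other sterol transport and storage, 9 rose and 8 fell (median 0.092), where 34.1% of all genes tested rose and 33.1% fell. VLDLR, a lipoprotein receptor, rose from 18.8 ± 3.07 to 126.9 ± 22.7 (2.03, adjusted p = 1.05e-06), NCEH1, which hydrolyses cholesterol esters, fell from 688 ± 80.3 to 240 ± 19.8 (-1.46), and OSBPL11, an oxysterol-binding protein relative, rose from 341 ± 4.16 to 683.5 ± 22.3 (0.97). Of 11 tested genes of isoprenoid branches, 2 rose and 3 fell (median 0.14), beside the same shares of all genes tested. PDSS1, a subunit of the synthase of the ubiquinone side chain, rose from 184.6 ± 14.4 to 287 ± 15.6 (0.60), FNTB, the beta subunit of farnesyltransferase, fell from 20.9 ± 4.87 to 6.4 ± 1.15 (-0.71), and PGGT1B, the beta subunit of a related prenyltransferase, rose from 421.5 ± 16.3 to 531 ± 26 (0.32). The adjusted p of the genes named in these lists was at most 0.010. Whether the sterol genes differed from these lists was not tested.

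**Figure D5:**
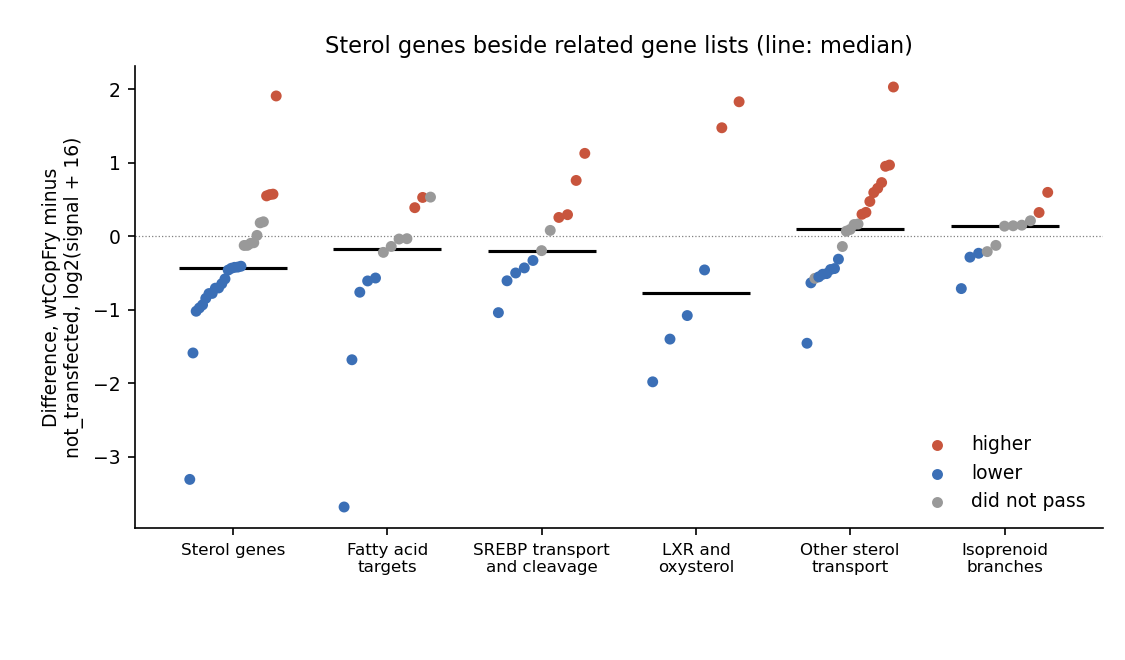
Difference on the log2(signal + 16) scale (y axis) for the 28 tested sterol genes and for the tested genes of 5 related lists (x axis), 1 point per gene, sorted within each list, with a line at the median. Red genes rose, blue genes fell and grey genes did not pass; the medians are -0.43 for the sterol genes, -0.18, -0.20, -0.77, 0.092 and 0.14 for the lists from left to right.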

How the data were processed

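Per the labels' protocols, RNA was amplified and labelled with biotin. The authors deposited linear signal intensities made with MAS5, which the submitters' processing notes name without a version. In the files, the mean over probe sets, with the lowest and the highest 2% left out, is equal on all arrays. Dim MAS5 values are unstable, because mismatch probes are subtracted. Gene names came from GEO's platform annotation, and Entrez identifiers matched against RefSeq (GRCh38.p14) changed 0 symbols. Of 54613 probe sets that are not controls, 32771 had a mean at or above the 40th percentile (a signal of 5.87) and were tested on log2(signal + 16) by limma 3.58.1 (lmFit, eBayes; R 4.3.3), with the 6 arrays in 2 groups and no covariate. Genes were read by their brightest tested probe set. A gene not passing the filter was read from a fit without it. A group was not above background where each array read at or below the highest of 27 unspiked bacterial control probe sets (2.5 to 4.9). Pairs of genes were compared with exact permutation tests (scipy 1.17.1). On simulated data for this comparison (32771 probe sets, 200 changed) 82% of the probe sets shifted by 1 (log2) and 99% of those shifted by 2 were called. Far fewer probe sets were changed there than were called in the data, and the changed ones were drawn from brighter probe sets only. These rates therefore do not carry over to the data or to dim genes. All sterol genes were named, and from each related list up to 3 called genes with the smallest p. From each marker list the brightest marker was named. Genes named beyond these rules are marked as named after their values were seen. Alternatives covered the pseudocount, filter, scaling, probe-set choice, replicate block and single arrays left out. The members and lists were chosen with earlier results of these data known. Figures were drawn with matplotlib 3.10.9.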

Additional observations from a re-analysis of the deposited data

How the results depend on the processing

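Of the sterol genes, 4 rose under each alternative tried except without the second not_transfected array (5), and 13 to 17 fell. The differences of STARD4, ACAT2, INSIG1, INSIG2, SREBF2, SCAP, LBR, MSMO1, SQLE, NPC1, NPC2 and ABCA1 kept their direction under every alternative that gave a value and passed in each that was tested; the median over probe sets has no test of its own, and a gene counts there where most of its tested probe sets passed. By that rule HMGCS1 (-0.50), IDI1 (-0.40) and LSS (-0.24) no longer counted and EBP (-0.25) did. Without probe sets prone to cross-hybridise, 6 sterol probe sets rose and 17 fell, 13 sterol genes fell and 11 related genes rose. Among the genes that fell in the main fit, ACAT2, HSD17B7 and TM7SF2 had no value there. Among probe sets with a signal of at least 100 in a group, 4 rose. The median of the mevalonate and isoprene genes was -0.55 with a pseudocount of 1, -0.57 with a 60th percentile filter and -0.71 at that signal limit. It was -0.51 to -0.37 with single arrays left out. The median of the ring enzymes was -0.52 with a pseudocount of 1, -0.29 with 64 and -0.33 with the median over probe sets. That of all synthesis genes was -0.55 with a pseudocount of 1 and -0.50 at the signal limit. With single arrays left out, the median of the SREBP regulators ran from -0.31 to 0.10 and the shift of NPC1 minus NPC2 from -0.18 to 0.040, so both changed sign; the cause was not tested. Among genes that did not pass, NSDHL turned to -0.0055 with median centring and -0.0048 with the median over probe sets, and ran from -0.017 to 0.059 with single arrays left out (-0.0087 without the third not_transfected array). DHCR7 ran from -0.27 to 0.015, positive without the first not_transfected array, and SREBF1 turned to 0.10 without the second not_transfected array and 0.070 without the first wtCopFry array. A looser sterol core, CACCCCAC, stood in 2 of 27 sterol genes (7.41%) and in 3.39% of all genes with a window.

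The replicate numbers are shared by the groups, but no label says that a number marks a shared day or culture. The numbers were therefore not taken as pairs. Same-numbered arrays deviated together with correlations of 0.070, 0.074 and 0.187 over probe sets. Those of unlike number ran from -0.134 to 0.079, the highest being the first not_transfected with the second wtCopFry array. With the replicate block 4673 genes rose and 4537 fell over all genes, and 4 sterol genes rose and 17 fell. Low signal limits MVD, TM7SF2 and SREBF1, and ABCG1 lay near the unspiked controls.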
